A study of Mus musculus with 10 samples.

Results

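Mitochondrial ribosomal proteins are described here in the left atrium of adult mice 1 week after induced removal of Tbx5. The members were all table entries whose symbol starts with Mrpl or Mrps followed by a number, 76 of 23337 genes: 47 named for the large subunit (Mrpl) and 29 for the small subunit (Mrps). All 76 matched a protein-coding gene of GENCODE M21, and 74 of them (46 large, 28 small) had enough reads to be tested. Mrpl23 and Mrps36, with at most 4.4 and 4.7 normalized counts in any library, did not.

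The knockout group held 6 libraries labelled Tbx5-/- (3 female, F1 to F3, and 3 male, M1 to M3), and the control group held 4 labelled wild type, Tbx5 +/+ (2 male, M1 and M2, and 2 female, F1 and F2). In the knockouts a tamoxifen-inducible Cre expressed from the ubiquitous R26 promoter cut out exon 3 of Tbx5, which encodes a cardiac transcription factor of the T-box family, so excision was not limited to cardiomyocytes. Tamoxifen was injected for 3 days at 0.167 mg per day. All animals were of mixed C57B6 and 129 background, aged 8 to 10 weeks by the sample labels and 6 to 8 weeks by the extraction protocol, and the treatment protocol, worded alike for every sample, describes tamoxifen only as the means of excision, so it is not clear whether controls carried Cre or received tamoxifen. The purpose given was to find the expression changes that follow loss of TBX5 in the adult atrium.

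Mitochondria carry their own ribosome, which makes a small set of membrane proteins of the respiratory chain and the ATP synthase from messenger RNAs of the mitochondrial genome. Its ribosomal RNAs are mitochondrial transcripts, but every one of its proteins is encoded in the nucleus, made in the cytosol and imported, so a mitoribosome needs products of both genomes. Some of its proteins belong to families shared with the bacterial ribosome, and others have no bacterial counterpart. The heart, with its dense mitochondria, depends on this machinery, and inherited defects of several members cause cardiomyopathy in humans.

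Libraries held 5789632 to 7355782 assigned reads in the knockout group and 5701670 to 7697556 in the control group. Log2 CPM correlated at 0.964 to 0.986 within groups and 0.888 to 0.949 between them. The 10 most abundant genes took 10.9 to 14.4% of reads in knockout libraries and 19.3 to 20.9% in control libraries. Tbx5 itself was counted at 1952 ± 336 normalized reads in knockout libraries and 939 ± 125 in control libraries (SD, n = 6 and 4; exact two-sided permutation test p = 0.00952, the smallest that 210 splits allow). A whole-gene count does not measure the loss of 1 exon, so it does not check the genotype labels. The sex labels were checked with Xist and 2 Y-linked genes (Ddx3y and Kdm5d): 0 of 6 knockout libraries and 4 of 4 control libraries went against them. In control F1 (119 Xist reads, 1375 Y-linked reads) and knockout M3 (153 and 768) both kinds of transcript were present. The genotype comparison does not use the sex labels, but any value split by labelled sex sets animals of opposite chromosomal pattern beside each other.

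Mitoribosomal protein genes had slightly higher values in knockout atria, with few falls. Of the 74 tested members, 21 rose (28.4%), where 20.8% of all 13191 tested genes rose, and 2 fell (2.7%), where 21.8% of all tested genes fell, by edgeR's quasi-likelihood test at a Benjamini-Hochberg adjusted p of 0.05 over all genes. The other 51 members did not pass and lay between -0.34 and 0.39 on the log2 scale. The median log2 fold change, knockout over control, was 0.15 over the members (quartiles 0.012 and 0.31), against -0.00 over all tested genes, and 59 members (79.7%) had a positive value, against 49.9% of all tested genes. By subunit, 14 of 46 large-subunit genes rose and 1 fell, with a median of 0.16, and 7 of 28 small-subunit genes rose and 1 fell, with a median of 0.15. In either direction, 23 of the 74 members passed, where 42.6% of all tested genes passed. The rises ran from 0.27 to 0.83 on the log2 scale, and the largest change of all was a fall, that of Mrps6.

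**Figure D1:**
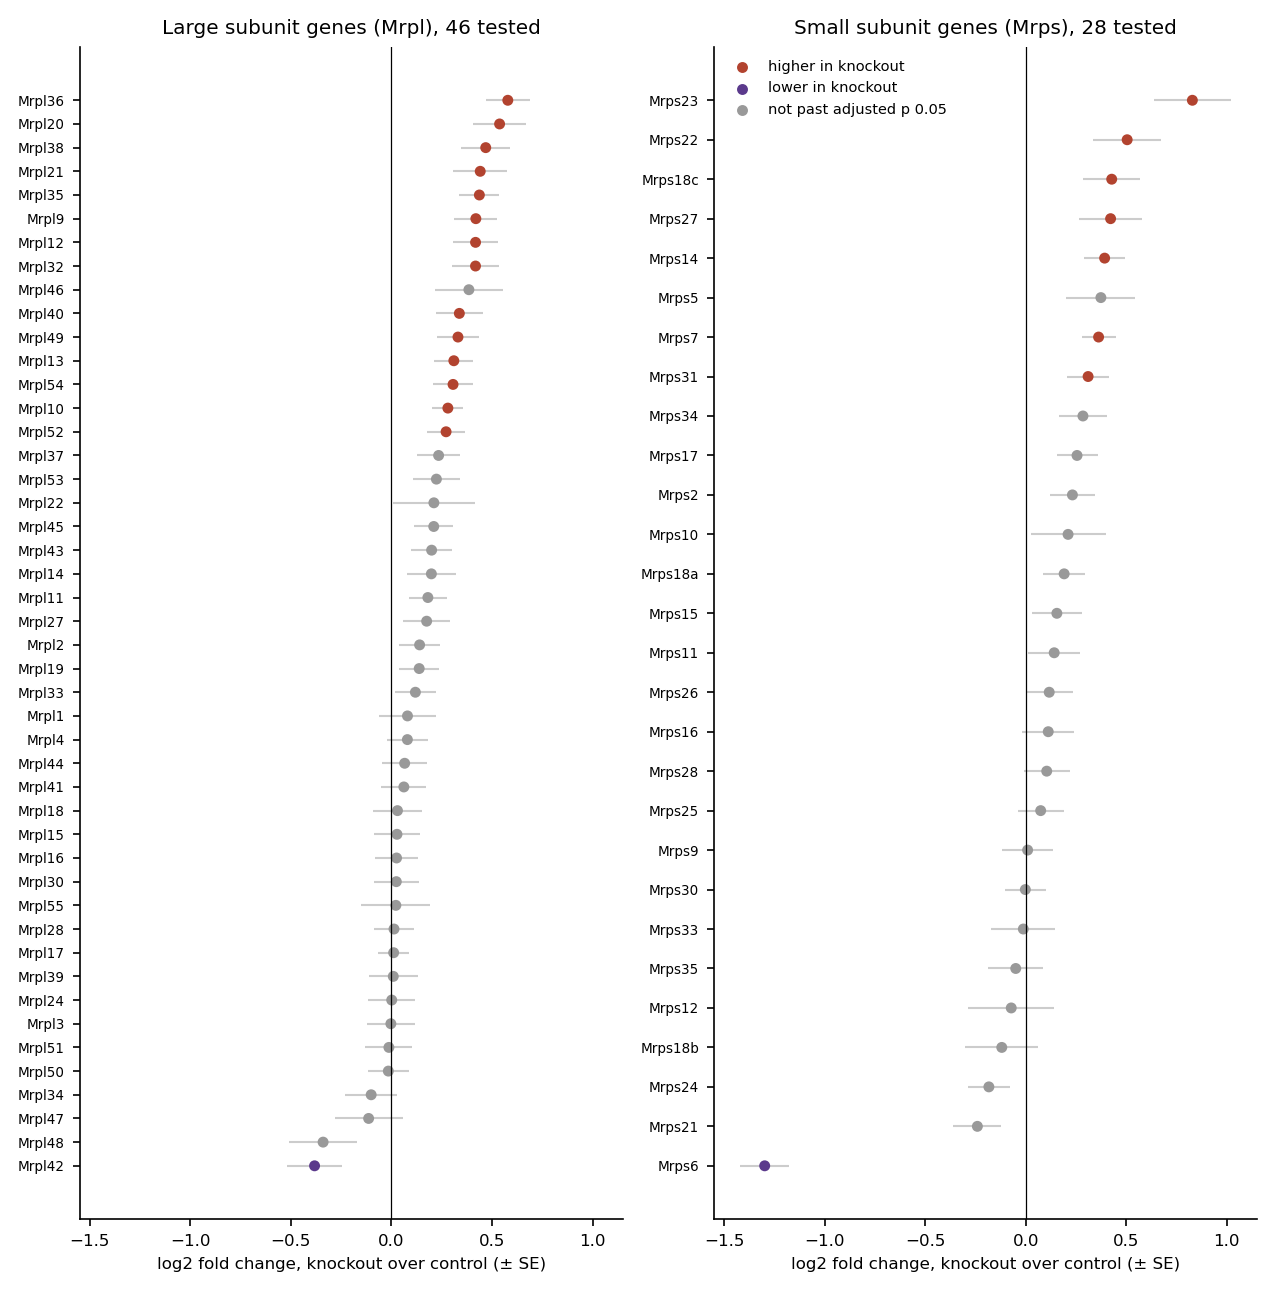
Log2 fold change of each tested member, knockout over control, with its standard error, for genes named for the large subunit (left) and the small subunit (right); colours mark genes past an adjusted p of 0.05. The 21 rises lie between 0.27 and 0.83, while Mrps6 stands alone at -1.30 and Mrpl42 is the other fall, at -0.38.

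The size of this shift depended on how libraries were put on one scale. Scaled to library size alone, 36 members rose and 1 fell with a median of 0.28, but the median of all genes then also moved, to 0.14, and 29.9% of all genes rose. The members are short: the median length of their longest transcript was 1302 bp, against 3210 bp over the 11973 tested genes with an annotated length, and their median GC content was 50.5%, against 50.2%. Over those genes the fold change fell with length (Spearman's rho = -0.23) and rose with GC content (rho = 0.22), as a description over genes that share the same 10 libraries. Within the 74 tested members the same statistic was -0.003 for length and 0.11 for GC content. With an offset for length and GC content in each library, 11 members rose (14.9%; 20.3% of all genes) and 5 fell (6.76%; 23% of all genes), and the median became 0.024, against -0.028 over all genes. Of the 21 rises, 9 stayed past the threshold with the offsets (Mrpl9, Mrpl20, Mrpl32, Mrpl35, Mrpl36, Mrps14, Mrps22, Mrps23 and Mrps31), 12 did not, and both falls did. Such offsets also remove any real genotype difference that goes with length or GC content, and the part of either in the members' shift was not tested.

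**Figure D2:**
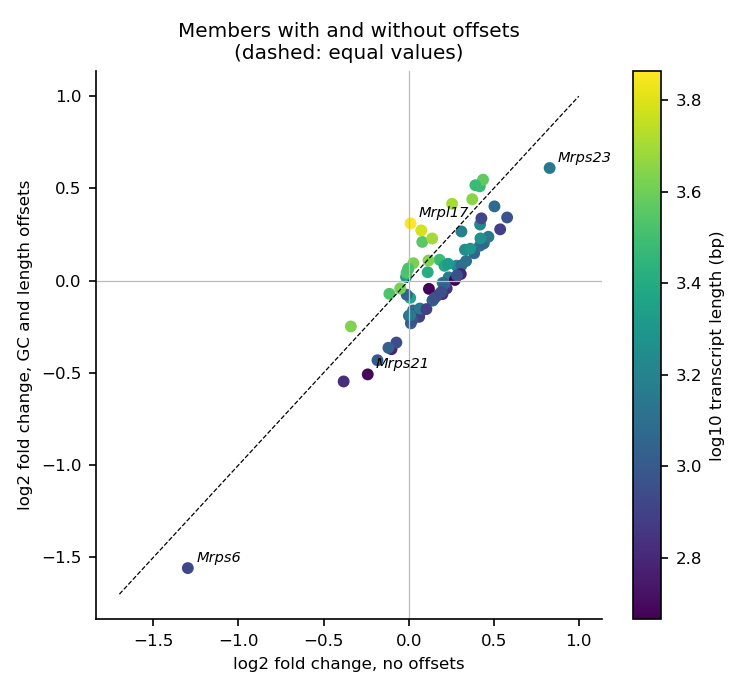
Log2 fold change of each tested member, knockout over control, without offsets (horizontal) and with offsets for GC content and transcript length (vertical), coloured by transcript length; the dashed line marks equal values. Short members, in dark colours, lie below the line and long members, such as Mrpl17 (0.01 without and 0.31 with offsets), above it, while Mrps6 and Mrps23 keep the lowest and highest values on both axes.

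Promoter sequences are shown for the 5 members with the smallest adjusted p, Mrps6, Mrpl36, Mrpl35, Mrps23 and Mrps7, since these carry the clearest differences. Each is the RefSeq window (build GRCm38.p6) of 250 bases before to 50 after the gene's RefSeq start, on the gene's own strand. Capitals mark any match to 1 of the 4 motifs searched. The GENCODE starts of Mrpl36 (73328513) and Mrpl35 (71826969, reverse strand) lie outside these windows. The windows are chr16:92058086-92058385 (+) for Mrps6, chr13:73330759-73331058 (+) for Mrpl36, chr6:71823735-71824034 (-) for Mrpl35, chr11:88204138-88204437 (+) for Mrps23 and chr11:115603890-115604189 (+) for Mrps7.
Mrps6: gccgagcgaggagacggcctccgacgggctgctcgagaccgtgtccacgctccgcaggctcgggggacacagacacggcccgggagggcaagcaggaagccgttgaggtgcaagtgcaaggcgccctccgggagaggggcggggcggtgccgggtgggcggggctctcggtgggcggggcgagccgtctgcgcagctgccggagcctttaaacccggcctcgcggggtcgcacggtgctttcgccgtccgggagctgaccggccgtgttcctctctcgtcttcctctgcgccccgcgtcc
Mrpl36: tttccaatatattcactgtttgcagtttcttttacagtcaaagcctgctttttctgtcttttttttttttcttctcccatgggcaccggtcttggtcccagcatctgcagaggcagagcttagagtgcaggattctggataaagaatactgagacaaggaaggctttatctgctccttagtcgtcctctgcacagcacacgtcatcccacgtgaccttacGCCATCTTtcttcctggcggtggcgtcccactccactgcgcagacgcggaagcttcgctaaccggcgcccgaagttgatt
Mrpl35: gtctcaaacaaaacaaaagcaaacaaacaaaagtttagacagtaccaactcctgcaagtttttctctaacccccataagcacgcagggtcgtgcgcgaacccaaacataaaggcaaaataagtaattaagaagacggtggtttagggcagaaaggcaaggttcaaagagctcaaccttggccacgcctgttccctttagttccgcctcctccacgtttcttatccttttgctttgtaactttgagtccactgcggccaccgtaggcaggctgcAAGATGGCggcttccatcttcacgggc
Mrps23: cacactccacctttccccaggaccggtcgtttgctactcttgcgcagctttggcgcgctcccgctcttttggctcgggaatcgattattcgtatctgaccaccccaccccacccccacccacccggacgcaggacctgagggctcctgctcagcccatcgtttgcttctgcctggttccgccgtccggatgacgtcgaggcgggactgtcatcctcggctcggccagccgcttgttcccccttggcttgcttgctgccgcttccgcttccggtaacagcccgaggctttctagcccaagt
Mrps7: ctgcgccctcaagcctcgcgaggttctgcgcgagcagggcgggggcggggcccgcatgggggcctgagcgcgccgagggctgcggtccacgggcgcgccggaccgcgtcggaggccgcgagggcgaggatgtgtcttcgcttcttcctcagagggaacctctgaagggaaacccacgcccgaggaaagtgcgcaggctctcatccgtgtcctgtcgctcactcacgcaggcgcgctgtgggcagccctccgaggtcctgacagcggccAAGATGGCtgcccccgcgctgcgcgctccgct

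The motifs, each searched on both strands, were AAGATGGC, a form of the YY1 site, GCATGCGC, the core of the NRF1 site, CCGGAAGT, a form of the ETS site that GABPA binds, and AGGTGTGA, a form of the T-box site. NRF1, GABPA and YY1 are known activators of nuclear genes for mitochondrial proteins. In the 5 windows above, the YY1 letters stood in Mrpl36 (30 bases before the start, reverse strand), Mrpl35 (24 bases after it, forward strand) and Mrps7 (19 bases after it, forward strand), and the windows of Mrps6 and Mrps23 held none of the 4. A window was at hand for 67 of the 76 members. The YY1 letters were in 12 of these (17.9%), against 4.95% of the 9348 tested genes with a window. They stood in 6 of 18 members that rose, 1 of 2 that fell and 5 of 45 that did not pass. The difference between these classes was not tested, and the matching shares among all genes that rose or fell were not counted. The ETS letters were in 12 member windows (17.9%, against 8.55% of tested genes) and the NRF1 letters in 8 (11.9%, against 5.92%), while the T-box letters were in none of the 67, against 0.984% of tested genes. These are letter matches, not measured binding.

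Mrps6 had the largest change. It encodes a small-subunit protein of a family shared with the bacterial ribosome and lies on chromosome 16, 92058270 to 92112227. Knockout libraries held 189 to 296 with a median of 258 normalized counts, and control libraries (M1, M2, F1 and F2 in that order, here and below) held 639, 511, 614 and 688. Every knockout library lay below every control library. The level was 2.46-fold lower in knockouts, a log2 fold change of -1.30 ± 0.12 (SE; edgeR adjusted p = 3.71e-06). The fall passed in all 24 alternative fits that tested against no change, with log2 fold changes from -1.56 to -1.16. Mrps6 overlaps the gene of the myo-inositol transporter Slc5a3, which starts beside it on the same strand: 305 of the 846 exonic bases of Mrps6 (36.1%) also belong to Slc5a3 or to a predicted gene, 159 of them to Slc5a3. Slc5a3 fell further, to 421 ± 67.3 normalized counts in knockout libraries, against 1971 ± 439 in control libraries (SD, n = 6 and 4; log2 fold change -2.25 ± 0.15, adjusted p = 2.33e-07). How reads of the shared first exon were assigned is not given in the sources used here, and the part of Slc5a3 transcripts in the count of Mrps6 was not tested.

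Among the other small-subunit genes, Mrps23 rose most. This protein has no bacterial counterpart, and its gene on chromosome 11, 88204388 to 88211507, had the highest normalized count of all members. Knockout libraries held 700.1 to 1484 with a median of 1300.0, and control libraries 535, 662, 834 and 687. Knockout M2, at 700.1, lay within the control range and the other 5 knockout libraries above it, from 1129 upwards. The level was 1.78-fold higher in knockouts (log2 fold change 0.83 ± 0.19, adjusted p = 0.00328).

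Mrps7 and Mrps14, small-subunit proteins whose bacterial relatives sit in the head of the subunit, rose without overlap between the groups. For Mrps7 (chromosome 11, 115603925 to 115608036), knockout libraries held 449 to 535 with a median of 513, and control libraries 384, 358, 385 and 423 (log2 fold change 0.36 ± 0.08, adjusted p = 0.00344). Mrps14 counted 296 to 386 in knockout libraries and 242 to 271 in control libraries, again without overlap (log2 fold change 0.39 ± 0.10, adjusted p = 0.00631). The same separation held for Mrps18c, 1 of 3 mammalian relatives of bacterial S18, at 128 to 194 in knockout libraries and 93.4 to 126 in controls (0.43 ± 0.14, adjusted p = 0.0248). The remaining rises, Mrps22 (0.50 ± 0.17), Mrps27 (0.42 ± 0.16) and Mrps31 (0.31 ± 0.10), are of proteins without a bacterial counterpart. Their groups overlapped: Mrps22, for example, counted 173 to 262 in knockout libraries and 108 to 189 in controls.

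Of the large-subunit genes, Mrpl36 changed most by size and by p. It encodes the mitochondrial relative of bacterial L36, a very small protein of the large subunit, and lies on chromosome 13, 73328513 to 73332178. Knockout libraries held 193 to 249 with a median of 219, and control libraries 161, 159, 124 and 138. The lowest knockout library was above the highest control, and the level was 1.49-fold higher in knockouts (log2 fold change 0.58 ± 0.11, adjusted p = 0.000777). Mrpl35, the relative of bacterial L35 on chromosome 6, 71812997 to 71826969, also separated the groups. It counted 322 to 412 with a median of 392 in knockout libraries, and 291, 263, 302 and 248 in control libraries (log2 fold change 0.44 ± 0.10, adjusted p = 0.00287).

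Mrpl10 and Mrpl12, proteins of the ribosomal stalk, the arm that recruits translation factors, were among the rises. Mrpl10, which anchors the stalk, counted 421 to 461 in knockout libraries and 329.6 to 374 in control libraries (log2 fold change 0.28 ± 0.08, adjusted p = 0.00947). Mrpl12, the stalk's flexible subunit, which in human cells also binds the mitochondrial RNA polymerase, counted 301 to 393 in knockout libraries and 220.0 to 294 in controls (0.42 ± 0.11, adjusted p = 0.00834). Neither gene had overlapping groups. With the length and GC offsets their values were 0.08 and 0.19, neither past the threshold.

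The other rises among families shared with bacteria were Mrpl20 (log2 fold change 0.54 ± 0.13, adjusted p = 0.00433), Mrpl9 (0.42 ± 0.11), Mrpl32 (0.42 ± 0.12), Mrpl21 (0.44 ± 0.13) and Mrpl13 (0.31 ± 0.10). Mrpl9 counted 345 to 437 in knockout libraries and 245 to 331 in controls, a clean separation. Mrpl20, whose bacterial relative is needed early in large-subunit assembly, counted 303 to 491 in knockout libraries and 246 to 324 in controls. Its lowest knockout library lay below 1 control. Mrpl32 is the precursor that the mitochondrial m-AAA protease must trim before it joins the ribosome, and it counted 200.2 to 286 in knockout libraries and 158 to 189.7 in controls.

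Rises of large-subunit proteins without a bacterial counterpart were those of Mrpl38 (0.47 ± 0.12) and Mrpl40 (0.34 ± 0.12), which belong to the central protuberance at the top of the subunit, and of Mrpl49 (0.33 ± 0.11), Mrpl54 (0.31 ± 0.10) and Mrpl52 (0.27 ± 0.09). Mrpl38 counted 236 to 339 in knockout libraries and 179 to 242 in controls, with 1 library of each group in the overlap. The only fall in the large subunit was that of Mrpl42, below only Mrps23 and Mrpl30 in mean normalized count among members. Knockout libraries held 569 to 944 with a median of 857, and control libraries 961, 1170.1, 954 and 1038, without overlap (log2 fold change -0.38 ± 0.14, adjusted p = 0.0363). That call was lost in 5 of the 10 fits that left out 1 library (control M1, M2, F1 or F2, or knockout F2; highest adjusted p 0.129), and with upper-quartile scaling, scaling to library size alone or no filter.

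**Figure D3:**
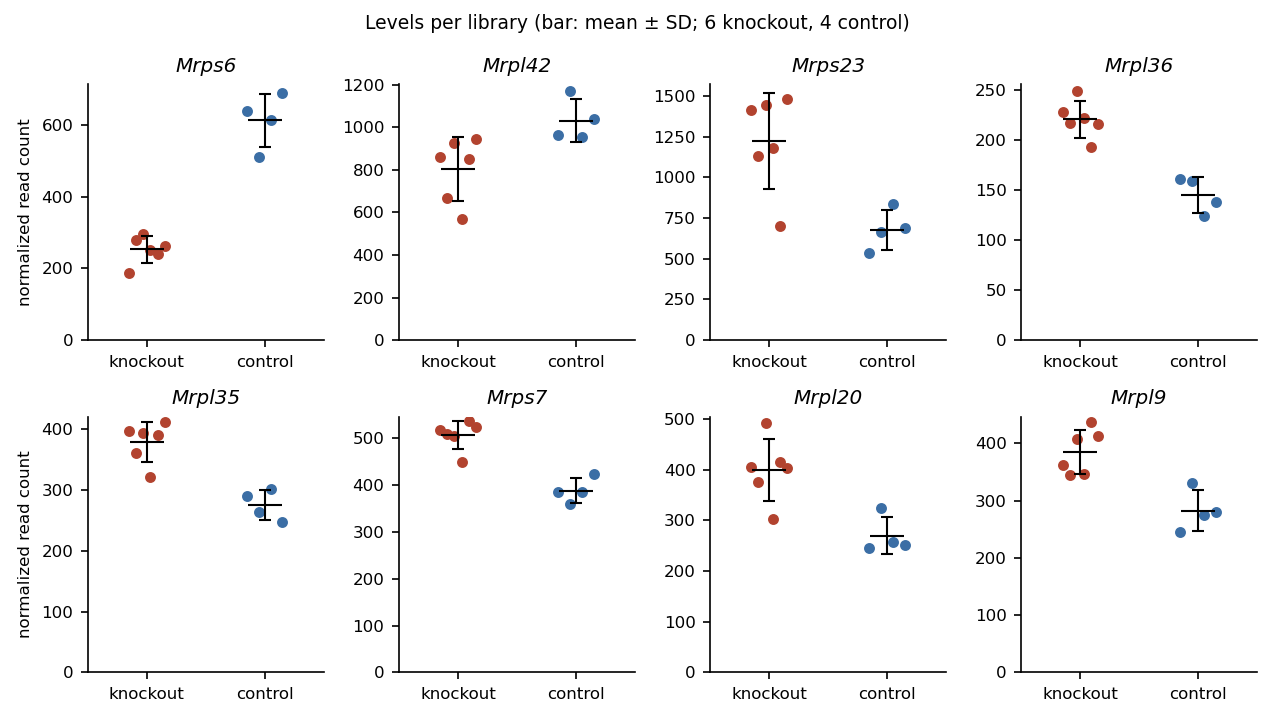
Normalized read count of 8 members in each library, knockout left and control right of each panel, with the mean and SD as bars; axes start at 0. Mrps6 and Mrpl42 are lower in all 6 knockout libraries than in all 4 controls, Mrpl36, Mrpl35, Mrps7 and Mrpl9 are higher in all 6, and Mrps23 (knockout M2 at 700.1) and Mrpl20 (knockout M1 at 303) each have 1 knockout library within the control range.

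Complete separation of the groups was seen for 13 members that were higher in every knockout library (17.6%; 16.3% of all tested genes) and 2 that were lower in every one (2.7%; 15% of all tested genes). Without control F1 and knockout M3, the 2 libraries with transcripts of both sex chromosomes, 14 members rose (18.9%; 17.2% of all genes) and 2 fell (2.7%; 18.4% of all genes). Besides Mrpl42, the calls lost when 1 library was left out were Mrps18c (without control M1 or F1; highest adjusted p 0.063), Mrpl54 (control M1 or knockout F2; 0.0667), Mrps22 (control M1 or knockout F1; 0.0654), Mrpl52 (control M1 or knockout F2; 0.0732), Mrps31 (control M1, control F1 or knockout F1; 0.059), Mrpl40 (control M1, F1 or F2, or knockout M2 or M3; 0.0654) and Mrps27 (control M1 or M2, or knockout F1, F3 or M3; 0.107). The other 14 rises and the fall of Mrps6 passed in each of the 10 fits.

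Members that did not pass included several of the most abundant. Mrpl30 counted 919 ± 125 in knockout libraries and 889 ± 65.4 in control libraries (SD, n = 6 and 4; log2 fold change 0.02 ± 0.11), Mrpl33 counted 703 ± 82.9 and 636 ± 55.2 in the same order (0.12 ± 0.10), and Mrpl18, which in human cells also takes part in importing a cytosolic ribosomal RNA into mitochondria, counted 588 ± 92 and 566 ± 52.9 (0.03 ± 0.12). Values nearest 0 were those of Mrpl24 (0.00 ± 0.12), Mrps30 (-0.00 ± 0.10) and Mrpl3 (-0.00 ± 0.12), the last a core protein close to the catalytic centre in the bacterial ribosome. Mrps30, despite its name, is a large-subunit protein in mitoribosome structures, as is Mrps18a (0.19 ± 0.10, adjusted p = 0.159). The lowest tested members, Mrps33 (47.2 ± 7.75 in knockout libraries and 46.8 ± 2.35 in controls), Mrps18b (46.4 ± 8.45 and 49.8 ± 10.2) and Mrpl22 (51.8 ± 6.92 and 43.9 ± 13.7), gave log2 fold changes of -0.01 ± 0.16, -0.12 ± 0.18 and 0.21 ± 0.21. The highest value short of the threshold was that of Mrpl46 (0.39 ± 0.17, adjusted p = 0.0795).

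Although a ribosome holds most of its proteins in equal copies, their transcripts differed widely in level. Per kb of longest transcript, the mean over all 10 libraries ran from 25.7 normalized counts for Mrps5 to 1414 for Mrpl33, with a median of 185 over the 74 tested members. Mrpl42 (1343), Mrpl30 (936) and Mrps23 (717) followed Mrpl33 on this scale. The isoforms in use were not measured, and an annotated transcript longer than the one expressed lowers such a value.

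Summed over genes, the large-subunit members reached 13364 to 17056 normalized counts in knockout libraries and 13043 to 14862 in control libraries, and the small-subunit members 6711 to 8763 in knockout libraries and 6423 to 7279 in controls. The sums overlapped for both subunits. As a share of all assigned reads, members took 0.334 to 0.41% in knockout libraries and 0.289 to 0.327% in controls, without overlap. That share takes no account of the most abundant genes, which held less of the reads in knockout libraries. Scaled to library size alone in the same way, 29.9% of all genes rose, against 20.8% with TMM scaling. With TMM scaling the members' summed CPM overlapped, at 3084 to 4010 in knockout libraries and 3043 to 3472 in controls. The ratio of small to large sums was 0.465 to 0.514 in knockout libraries and 0.475 to 0.495 in controls. Libraries differed in many members at once. Knockout M1 was the lowest of its group in 48 of the 74 members and knockout F3 the highest in 32, and among controls M1 was the lowest in 44 and F2 the highest in 31. Knockout M1 had 34 members above the control mean, and the other 5 knockout libraries 51 to 67. Without knockout M1, 28 members rose (37.8%; 23.2% of all genes) and 2 fell (2.7%; 23.2%). Without control M1, 15 rose (20.3%; 18.4% of all genes) and 1 fell (1.35%; 17.4%).

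**Figure D4:**
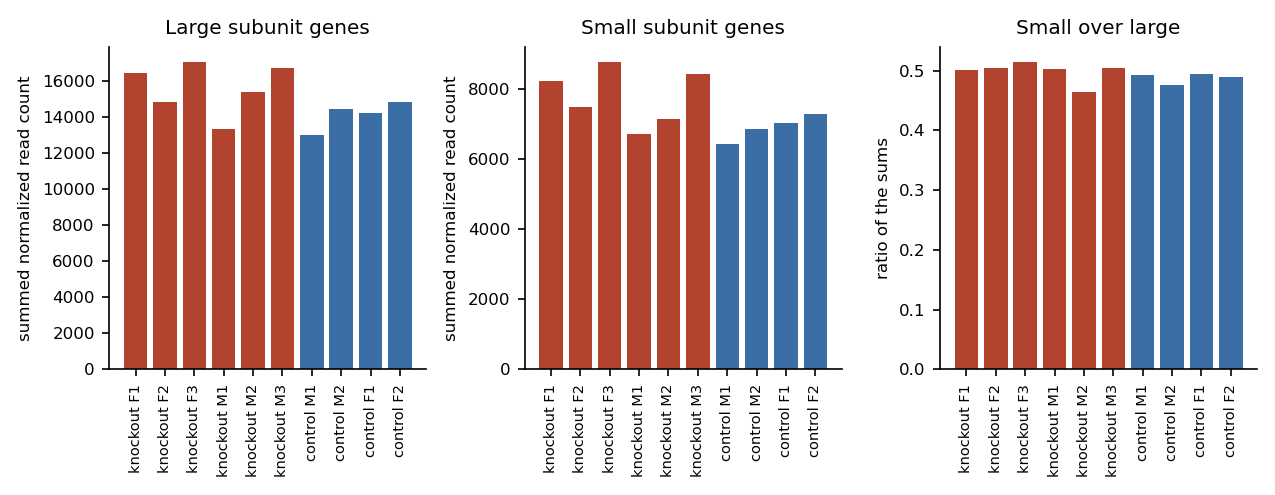
Summed normalized read counts of the large-subunit genes (left) and small-subunit genes (middle), and the ratio of the second sum to the first (right), in each of the 6 knockout and 4 control libraries; bars start at 0. Knockout M1 (13364 for the large subunit) lies among the controls, while knockout F3 (17056) is the highest library, and the ratio stays between 0.465 and 0.514 throughout.

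Within the set, members of families shared with bacteria and members particular to mitochondria were counted apart. In the first class 12 of 47 tested rose (25.5%) and 1 fell (2.13%), with a median of 0.14. In the second, 9 of 27 rose (33.3%) and 1 fell (3.7%), with a median of 0.21. Over all tested genes 20.8% rose and 21.8% fell. The difference between the classes was not tested. Exons of 25 tested members overlap exons of another gene, 21 of them on the opposite strand. The strand setting of the authors' counting is not given in the sources used here, so reads of such pairs may have been shared. Of the 25, 10 rose (40%) and 1 fell (4%), and of the 49 members without overlap 11 rose (22.4%) and 1 fell (2.04%). The medians were 0.18 and 0.14 in the same order. Complete separation upwards was seen for 9 of the 25 (36%) and 4 of the 49 (8.16%), against 16.3% of all tested genes. The 9 were Mrpl9, Mrpl10, Mrpl12, Mrpl13, Mrpl21, Mrpl36, Mrpl49, Mrps7 and Mrps18c. Between 2.58% (Mrpl36) and 27.0% (Mrpl13) of their exonic bases overlapped, for Mrps18c on the same strand and for the others on the opposite strand. The part of such shared reads in their rises was not tested. Separation downwards was seen for 1 member of each kind. The difference between members with and without exon overlap was not tested. Pseudogenes named after Mrpl23, Mrps36 and Mrpl48 are annotated, and counts of these 3 genes may miss reads that also matched a pseudogene.

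Other genes of mitochondrial translation moved in both directions, where 20.8% of all tested genes rose and 21.8% fell. Of 7 mitoribosomal proteins whose symbols lie outside the Mrpl and Mrps names, 0 passed in either direction by edgeR's test, with a median log2 fold change of 0.13. An unadjusted p under 0.05 was reached by 2 of them, DESeq2 called 1 higher and limma-voom 1 lower. Dap3, a GTP-binding protein of the small subunit, counted 573 ± 70.4 in knockout libraries and 585 ± 15.6 in controls (-0.05 ± 0.10). Ptcd3, a pentatricopeptide-repeat protein of the small subunit, counted 570.0 ± 123 in knockout libraries and 727 ± 91.6 in controls (-0.37 ± 0.15, adjusted p = 0.0602).

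Of 13 translation factors of mitochondria, 2 rose (15.4%; 20.8% of all tested genes) and 3 fell (23.1%; 21.8% of all tested genes), with a median of -0.04. The elongation factor gene Tufm (0.48 ± 0.14, adjusted p = 0.0138) and its exchange factor Tsfm (0.30 ± 0.10, adjusted p = 0.0336) rose. The initiation factor gene Mtif2 fell to 197 ± 44.2 normalized counts in knockout libraries, against 323 ± 54.3 in controls (-0.74 ± 0.16, adjusted p = 0.0023), and Guf1 (-0.43 ± 0.14, adjusted p = 0.021) and the release factor Mtrf1 (-0.64 ± 0.21, adjusted p = 0.0262) fell too. Of these, Mtif2 and Tufm passed in all 10 fits without 1 library, Guf1 in 8 (highest adjusted p 0.0736, without control F1 or F2), and Tsfm and Mtrf1 in 5 each (0.071 and 0.0954). Tsfm was lost without control F1, control F2, knockout F1, knockout M2 or knockout M3, and Mtrf1 without control M1, control M2, control F1, knockout F2 or knockout F3. With the length and GC offsets, Tufm (0.28, adjusted p = 0.124) and Tsfm (0.088, adjusted p = 0.447) did not pass, and with scaling to library size alone Guf1 (-0.29, adjusted p = 0.065) and Mtrf1 (-0.51, adjusted p = 0.0633) did not.

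Of 23 genes for ribosomal RNA modification and mitoribosome assembly, 2 rose (8.7%) and 3 fell (13%), with a median of 0.03. Over all tested genes these shares were 20.8% and 21.8%. The ribose methyltransferase gene Mrm1 fell most, to 114 ± 28.6 normalized counts in knockout libraries, against 249 ± 9.15 in controls (-1.15 ± 0.16, adjusted p = 9.95e-05), while another methyltransferase of the same ribosomal RNA, Rnmtl1, rose to 152 ± 25.6 in knockout libraries, against 98.4 ± 8.87 in controls (0.60 ± 0.14, adjusted p = 0.00383). Mterfd2 (-0.56 ± 0.10) and Fastkd2 (-0.70 ± 0.16), both needed for large-subunit assembly, fell, and Wbscr16 (0.38 ± 0.11) rose. Among 19 mitochondrial aminoacyl-tRNA synthetase and amidotransferase genes, 1 rose (5.26%) and 2 fell (10.5%), with a median of -0.01. The rise was that of Mars2 (0.31 ± 0.11), and the falls were those of Ears2 (-0.36 ± 0.12) and Gatc (-0.29 ± 0.11). These 3 calls passed in 5, 4 and 3 of the 10 fits without 1 library, with highest adjusted p-values of 0.124, 0.122 and 0.131. The libraries whose absence ended them were control M2, F1 and F2 and knockout F1 and M2 for Mars2, control M1 and F2 and knockout F1, F2, F3 and M2 for Ears2, and every control and knockout F2, M2 and M3 for Gatc. Ears2 and Gatc also did not pass with upper-quartile scaling (adjusted p = 0.0537 and 0.0792), scaling to library size alone (0.165 and 0.259), DESeq2 or no filter. Mars2 did not pass with labelled sex as a covariate. With the length and GC offsets all 3 passed, at 0.83 for Mars2 (adjusted p = 9.55e-05), -0.54 for Ears2 (0.00349) and -0.45 for Gatc (0.00388).

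**Figure D5:**
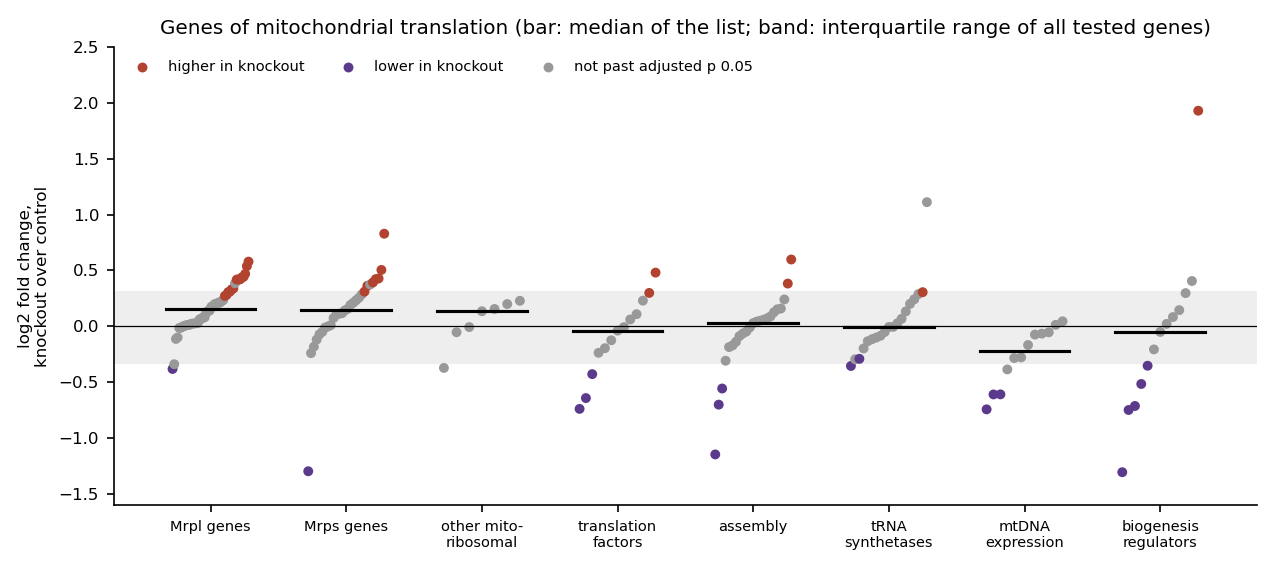
Log2 fold change, knockout over control, of each tested gene in the 2 groups of members and in 6 lists of related genes; the bar is the list's median, the grey band is the interquartile range of all tested genes, and colours mark genes past an adjusted p of 0.05. The medians of the member groups are 0.16 and 0.15, that of the genes of mitochondrial DNA expression is -0.22, and Myc (1.93) and Ppargc1a (-1.31) are the extremes.

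Of 12 genes that copy and transcribe mitochondrial DNA or stabilise its transcripts, 3 fell (25%; 21.8% of all tested genes) and the rest did not pass. Their median was -0.22 (-0.09 with scaling to library size alone). The falls were those of Lrpprc, the DNA helicase Peo1 (-0.61 ± 0.13) and Mterfd3 (-0.74 ± 0.16). Lrpprc, which binds mitochondrial messenger RNAs, held 697 ± 159 normalized counts in knockout libraries and 1048 ± 123 in controls (-0.61 ± 0.15, adjusted p = 0.00537). Of 13 regulators of mitochondrial biogenesis, 1 rose (7.69%; 20.8% of all tested genes) and 5 fell (38.5%; 21.8% of all tested genes), with a median of -0.05. The coactivator Ppargc1a fell to 353 ± 67.1 in knockout libraries, against 859 ± 156 in controls (-1.31 ± 0.16, adjusted p = 2.37e-05). Gabpa, the DNA-binding subunit of the factor that binds the ETS letters above, fell to 392 ± 34 in knockout libraries, against 631 ± 52.2 in controls (-0.71 ± 0.09, adjusted p = 4.34e-05), as did Gabpb2 (-0.35 ± 0.09), Esrrg (-0.52 ± 0.13) and Ppara (-0.75 ± 0.20). With the length and GC offsets, Esrrg (-0.29, adjusted p = 0.0884) and Gabpb2 (-0.063, adjusted p = 0.586) did not pass, and Gabpb2 did not with scaling to library size alone (-0.21, adjusted p = 0.0655). Nrf1 (0.02 ± 0.10) and Yy1 (-0.05 ± 0.13) did not pass. Myc, a growth regulator known to act on ribosomal genes, rose to 49.8 ± 16.8 in knockout libraries, against 12.8 ± 4.58 in controls (1.93 ± 0.31, adjusted p = 0.00025). With scaling to library size alone, the medians turned positive for translation factors (0.097), synthetases (0.13) and regulators (0.093), and with the length and GC offsets they were negative for the 5 annotated proteins with other symbols (-0.056) and 17 annotated assembly genes (-0.15). Of 26 symbols searched for messenger RNAs encoded by mitochondrial DNA, 0 were among the genes counted, so those transcripts were not analysed here.

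Counted beside the members were 2 related groups of nuclear genes. Of 60 tested cytosolic ribosomal protein genes, 21 rose (35%) and 1 fell (1.67%), with a median of 0.31. With the length and GC offsets 9 of 59 rose and 3 fell (median 0.15). Of 35 complex I subunit genes (Nduf), 3 rose (8.57%) and 2 fell (5.71%), with a median of 0.06. With the offsets 1 rose and 13 fell (median -0.15), and with scaling to library size alone 10 and 0 (median 0.19). Of all tested genes, 20.8% rose and 21.8% fell. These shares were 20.3% and 23% with the offsets, and 29.9% and 15.3% with scaling to library size alone. The differences between these groups and the members were not tested.

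In whole tissue, fewer cells of a type and less RNA per cell cannot be told apart, and markers of several cell types moved with the genotype. Of all tested genes, 20.8% rose and 21.8% fell. Of 10 tested atrial cardiomyocyte markers 9 fell, and their summed level was 129984 to 245668 normalized counts in knockout libraries and 432753 to 476211 in controls. General cardiomyocyte markers split, with 4 of 10 up and 4 down (sums of 441336 to 608994 and 787353 to 971998 in the same order). Markers rose for fibroblasts in 7 of 10 genes, with 2 down (88104 to 119133 in knockout libraries and 56703 to 62635 in controls), for macrophages in 9 of 10 (7951 to 11897 and 3440 to 4736), for smooth muscle cells and pericytes in 7 of 10 (15613 to 19561 and 9576 to 10416.0) and for endothelium in 4 of 10, with 3 down (20206 to 22348 and 15877 to 18180.4). All 12 cell cycle genes rose (1131 to 3040.4 in knockout libraries and 114 to 349 in controls). Epicardial markers rose in 1 of 8 genes, ventricular ones in 2 of 5 (Irx4 was at 0 in every library) and neuronal or glial ones in 2 of 3, with 1 down; no adipocyte marker was tested, and 4 globin genes were listed at 0 in every library. Per the labels, globin transcripts had been removed from the RNA, and the part of that step in these zeros was not tested. The part of these cell types in the members' values was not tested.

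The genotype effect on members was not shown to differ by labelled sex. A fit with sex, genotype and their interaction called 0 of 74 members (27 of all tested genes, 0.205%), with 1 member under an unadjusted p of 0.05, and the lowest adjusted p was 0.685, for Mrpl55. Since the control libraries went against their sex labels, this contrast does not compare the sexes by chromosomal pattern. In the authors' deposited table, 22 members had a positive and 2 a negative log2 fold change at an adjusted p of 0.05. Of the 15796 genes with an adjusted p there, 2960 were higher and 2816 lower. Of the members' calls, 23 were made here as well, in the same direction, from the same counts.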

How the data were processed

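Left atrial RNA was sequenced in 10 libraries, each labelled as its own animal; whether any litter or batch was shared is not stated. Per the submitters' processing notes, FastQC, TopHat2 2.0.11, featureCounts and DESeq2 were used with build mm10. Neither annotation nor strand setting is given in the sources used here. The authors deposited raw counts per gene and, per the file headers, a normalized signal (each count over its library's size factor), their own log2 fold changes, the linear fold (a ratio), a Wald score, and p-values with adjusted p-values. Levels are given as deposited normalized counts. All per-sample columns matched a library.

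Counts were tested with edgeR 4.0.16 in R 4.3.3: filterByExpr, TMM scaling, the quasi-likelihood F-test over 13191 genes and Benjamini-Hochberg adjustment at 0.05. A standard error is the absolute log2 fold change over the square root of F. The fit was checked on simulated counts. Totals ran from 5701670 to 7697556 reads, so genes with few reads carry a large counting error. No 2 libraries of a group agreed within sampling noise (lowest chi-square per degree of freedom 4.22). The protocol names both an mRNA kit and ribosomal RNA depletion. GENCODE M21 (GRCm38) gave positions, lengths and exon overlaps, and RefSeq GRCm38.p6 gave promoters.

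Alternatives were RLE, upper-quartile and library-size scaling, DESeq2 1.42.0, limma-voom (limma 3.58.1), and no filter or at least 50 counts in 4 libraries. Others were labelled sex or replicate number as covariates, labelled sexes apart, each library left out, and control F1 and knockout M3 left out together. Labelled sex as a covariate does not adjust for chromosomal pattern, since all control libraries went against their labels. GC and length offsets (splines with 4 degrees of freedom, 11973 genes) and a test against a fold of 1.2 were also used. The annotated genes without offsets were added after the data were seen. Named members are all past the threshold, the 5 highest, the 3 lowest tested and the 3 nearest 0; of each list of related genes, up to 4 with the smallest adjusted p were to be named, and other genes named (Mrpl46, Mrps18a, Dap3, Ptcd3, Tsfm, Wbscr16, Ppara, Gabpb2, Nrf1 and Yy1 among them) were added after their values were seen. Members, lists and the split into shared and mitochondrial families were chosen with earlier results of these data known.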

Additional observations from a re-analysis of the deposited data

Results flagged for a closer look

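Among 68 sets of 4 to 6 libraries examined for 1 value far from the rest, 2 held one; chance alone gives about 1 in 20. For Mrps7, knockout M1 had 449 normalized counts, below the other 5 knockout libraries and still above all controls. For Mrpl20, control M2 had 324 normalized counts, above the other 3 controls, and the rise of Mrpl20 passed without that library.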

How the results depend on the processing

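Across the alternatives no call of a member turned round, and the sign of every called member was kept in every fit. The number of members that rose, 21 as reported, was 36 with scaling to library size alone, 11 with GC and length offsets, 10 and 1 in the libraries labelled female and male alone (13.5% and 1.35% of members; 17.6% and 8.14% of all genes), and 3 in a test against a fold of 1.2 (4.05% of members; 13.0% of all genes). The number that fell, 2 as reported, was 1 with upper-quartile or library-size scaling, without the filter, in either labelled sex alone and against a fold of 1.2, and 5 with the offsets. Leaving out 1 library gave 15 to 28 rises, 1 to 2 falls and a median of 0.13 to 0.21; the median of 0.15 moved by more than the SD of the libraries' medians within groups (0.116) with scaling to library size (0.28) and with the offsets (0.024). With the offsets Mrpl17 and Mrps17 were gained as rises and Mrpl34, Mrps21 and Mrps24 as falls, and 12 rises were lost. Some of these changes follow from the construction (fewer libraries, a stricter null); otherwise the cause was not tested. The annotated genes without offsets gave 22 rises and 2 falls.

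With the shared replicate numbers as a block, 14 members rose and 4 fell (Mrpl48 and Mrps21 added; 18.9% and 5.41% of members, 19.7% and 21.3% of all genes), with a median of 0.098. Whether the numbers pair animals is not stated. Same-numbered libraries deviated together at -0.04 (M1), 0.17 (M2), -0.13 (F1) and -0.05 (F2). Control M2 deviated most like knockout M2, and controls M1, F1 and F2 each most like a knockout library of another number. So few values cannot decide on pairing, and the control libraries went against their sex labels. Without control F1 and knockout M3, which held transcripts of both sex chromosomes, 14 rose and 2 fell. The interaction with labelled sex called 0 members in every fit run. Of 768 values of 32 named members under an alternative, 679 kept their side of the threshold and 89 lost it. That tally leaves out the test against a fold of 1.2, in which 18 rises and 1 fall were lost. Depth limits the fold changes of members near 50 reads per library.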
